A study of Homo sapiens with 54 samples.

Results

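OCI-Ly1 cells that stably express wild-type STAT6 (STAT6WT) were compared at 8 h and at 4 h after a short pulse of IL-4. The 18 libraries were chosen by their labels, 9 per time point, out of the 54 libraries of the study. No measured value entered that choice of libraries, but the comparison and the gene lists were chosen with earlier results of these data known. The line, OCI-Ly1, is an established one from a human B cell lymphoma with the t(14;18) translocation, and it carries a variant of its own in the DNA-binding domain of STAT6. Every group received IL-4 at 10 ng/ml for 20 min, was washed, and was replated free of the cytokine, and cells were lysed after 2, 4, or 8 h. The other libraries held the same STAT6WT cells at 2 h (n = 9) and cells expressing a mutant STAT6 (STAT6MUT; D419G, D419N, and N421K, each n = 3 per time point). Flag-tagged STAT6 was expressed from a CMV promoter on a construct that also carries ZsGreen, so that the added STAT6 was not under control of its own promoter. The number of independent transductions is not given in the sources used here, and the labels call the replicates biological without saying whether they are separate cultures, so that p-values measure the spread between these libraries. No library without IL-4 was used here, so that time after the pulse cannot be told apart from time after washing and replating.

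IL-4 binds its receptor on B cells, JAK kinases phosphorylate STAT6, and the STAT6 dimer enters the nucleus and activates target genes. These include the negative feedback regulator SOCS1 and FCER2, which encodes the low-affinity IgE receptor CD23. Late after a short pulse, some responses of this kind may have decayed. Transcripts of general cell programs (protein folding, energy and lipid metabolism, B cell identity) can be followed in the same libraries. Chaperone genes are activated by heat shock factor 1, which binds inverted repeats of GAA, and many genes of glycolysis and of the hypoxia response are activated by hypoxia-inducible factors, which bind a short core, ACGTG.

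Promoter sequence is shown for genes that rose (the chaperone genes HSPA8 and CHORDC1) and for genes that fell (CA9, ALDOC, LDHA, and GAPDH), because short motifs are known for the factors that activate these groups of genes. The sequences are from the RefSeq promoter table of GRCh38.p14, 60 bases each, read 5′ to 3′ on the strand of the gene, and lie within the 250 bases before the start used in that table. The gene models of GENCODE, used for gene positions elsewhere, begin further upstream for some of these genes, so that the windows of HSPA8 and GAPDH and most of that of ALDOC lie inside them. Capitals mark the match to GAANNTTC in the first 2 sequences and to ACGTG or its complement CACGT in the other 4. The windows are chr11:123062153-123062212 on the minus strand for HSPA8, chr11:90223066-90223125 on the minus strand for CHORDC1, chr9:35673868-35673927 on the plus strand for CA9, chr17:28576896-28576955 on the minus strand for ALDOC, chr11:18394462-18394521 on the plus strand for LDHA, and chr12:6535156-6535215 on the plus strand for GAPDH.
HSPA8: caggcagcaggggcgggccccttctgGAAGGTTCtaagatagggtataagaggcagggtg
CHORDC1: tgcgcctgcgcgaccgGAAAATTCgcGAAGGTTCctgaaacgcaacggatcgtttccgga
CA9: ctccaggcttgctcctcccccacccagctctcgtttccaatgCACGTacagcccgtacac
ALDOC: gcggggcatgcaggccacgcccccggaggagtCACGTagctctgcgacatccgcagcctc
LDHA: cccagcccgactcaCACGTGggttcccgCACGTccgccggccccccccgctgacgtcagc
GAPDH: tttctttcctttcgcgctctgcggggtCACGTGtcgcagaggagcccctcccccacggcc

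Libraries were made with prime-seq, which counts each mRNA molecule once by a unique molecular identifier (UMI) near its 3′ end. The 4 h libraries held 676409 to 1744064 UMIs (median 871000) and the 8 h libraries 357395 to 2685091 (median 1118772), and the totals did not differ between the time points beyond their spread (p = 0.742, two-sided exact permutation test). Of the 18 libraries, 8 h replicate 2 alone held less than 0.5 of the median total of the series. The share of UMIs on protein-coding genes was 81.3% to 83.3% (median 82.1%) at 4 h and 81.6% to 84.6% (median 83.7%) at 8 h. These ranges overlapped, and the mean was higher at 8 h (p = 0.00601, two-sided exact permutation test of the difference of means). All 10 B cell markers on the list had UMIs at both time points, among them MS4A1, CD79A, and PAX5. Of the markers of other cell types, the 5 myeloid genes in the table reached at most 5 UMIs summed over the 9 libraries of a time point, and COL1A2 had 0. CD3G had 1 UMI at 4 h and 0 at 8 h, whereas TRAC (286 and 327 UMIs) the epithelial marker EPCAM (779 and 1162 UMIs), and the endothelial marker PECAM1 (47 and 30 UMIs) were detected at both.

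Between 4 and 8 h, transcripts of protein chaperones rose together in the STAT6WT cells, and several B cell genes rose by a small amount. Some transcripts of the hypoxia response, glycolysis, and sterol synthesis fell. By edgeR's quasi-likelihood test with an adjusted p under 0.05, 553 of 8924 genes changed (6.2%), of which 306 were higher (3.43%) and 247 lower (2.77%) at 8 h. The changes were small. By log2 fold change, the median absolute value of the genes called was 0.34, the largest rise was 0.83 (ACP5, a gene with few UMIs), and 5 genes (0.056%), all lower, reached an absolute log2 fold change of 1. These were CA9 (−1.76), the mitochondrial tRNA gene MT-TQ (−1.16), QSOX1 (−1.14), WNT10A (−1.02), and GARIN1A (−1.01). In 55 genes the ranges of the 4 h and the 8 h libraries did not overlap, and 52 of these were called.

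**Figure D1:**
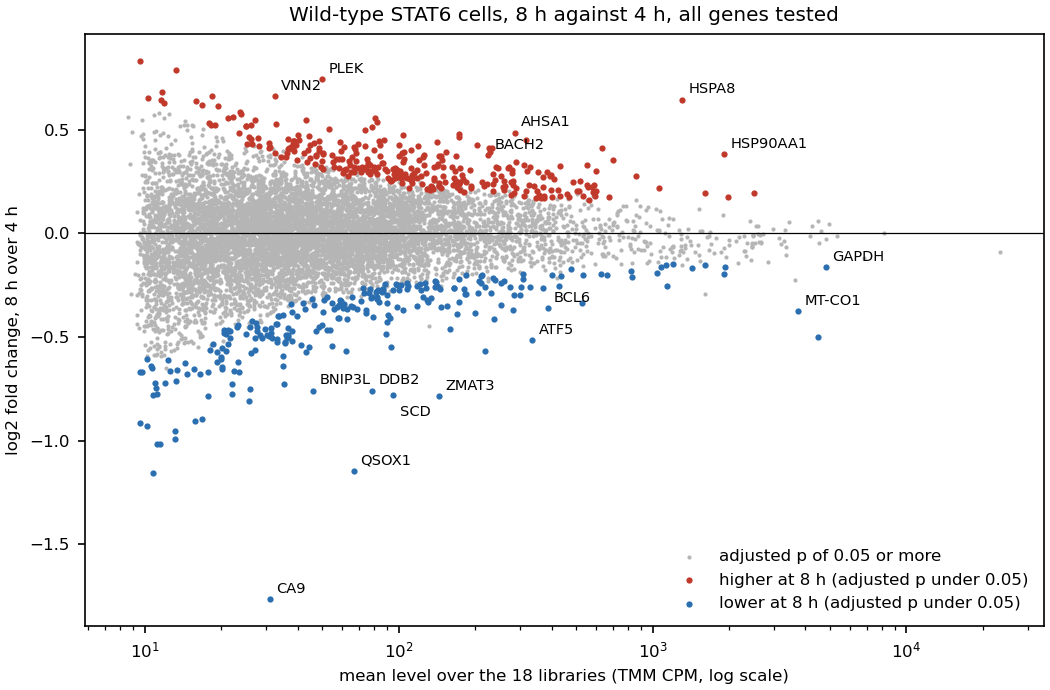
Each point is 1 of the 8924 genes tested, with its mean level over the 18 libraries in CPM (UMI counts scaled to a common library total, horizontal log axis) and its log2 fold change at 8 h over 4 h (vertical axis). Red points (306) were higher and blue points (247) lower at an adjusted p under 0.05, and most of them lie within 0.5 of the zero line, with CA9 and QSOX1 furthest below it among the labelled genes.

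Time points lay in different rows of the plate. The 4 h libraries were in rows C (7) and D (2) and the 8 h libraries in rows E (6) and F (3), so that time and plate row cannot be told apart. Within a time point, 0 of 9374 genes were called between rows D and C (0%; edgeR's quasi-likelihood test, 362 at an unadjusted p under 0.05) and 0 of 9590 between rows F and E (0%; 505 at an unadjusted p under 0.05). With rows C and E alone 169 genes were called, and with rows D and F alone 120.

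Among the lists with more than 1 gene tested, the highest median was that of the heat shock proteins and cochaperones, which fold newly made and damaged proteins. This list, like the others, was chosen with earlier results of these data known, so that its counts describe the step and do not test it. Of 27 members tested, 18 rose and 0 fell, beside 3.43% of all genes that rose, and the median log2 fold change was 0.25 beside −0.002 for all genes. With any library left out, 16 to 19 members rose, with rows C and E alone 12, and with rows D and F alone 7. Together the members made up 1.14% to 1.23% of the UMIs at 4 h and 1.37% to 1.5% at 8 h. HSPA8, the constitutive HSP70 chaperone of the cytosol, ranged in CPM (UMI counts scaled to a common library total) from 924 to 1119 (median 1001) at 4 h and from 1544 to 1688 CPM (median 1572) at 8 h. All 9 libraries of 8 h lay above all 9 of 4 h. The log2 fold change of HSPA8 was 0.65 ± 0.04 (SE, edgeR adjusted p = 9.5e-17), and the exact permutation test gave the smallest p it can give with 9 against 9 libraries (4.1e-05, two-sided).

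AHSA1, which stimulates the ATPase of HSP90, ranged from 192 to 265 CPM (median 240) at 4 h and from 308 to 359 CPM (median 335) at 8 h, again without overlap (log2 fold change 0.49 ± 0.06, edgeR adjusted p = 8.8e-09). Other partners of HSP90 moved the same way. FKBP4, a cochaperone of steroid receptors, rose by 0.44 ± 0.08 on the log2 scale, CHORDC1 by 0.42 ± 0.10, and STIP1, which links HSP70 and HSP90, by 0.37 ± 0.07 (edgeR adjusted p = 6.7e-05, 0.0057, and 0.00023). HSP90AA1, the inducible cytosolic HSP90, went from 1659 ± 119 CPM (SD, n = 9) to 2163 ± 178 CPM, a log2 fold change of 0.38, and the constitutive HSP90AB1 from 1852 ± 120 to 2098 ± 97.5 CPM (0.17). The mitochondrial chaperonin HSPD1 (0.41) and its partner HSPE1 (0.25) and the subunits CCT3 (0.35), TCP1 (0.29), CCT4 (0.22), and CCT5 (0.18) of the cytosolic chaperonin were called as well. DNAJB1, a partner of HSP70 that responds to heat, was the only tested member with a negative log2 fold change and did not pass (138 ± 20.4 CPM at 4 h and 127 ± 11.6 CPM at 8 h, −0.13, edgeR adjusted p = 0.33). The processed copy HSPA8P1, outside the rule for named genes and chosen after its value was seen, had a log2 fold change of 0.79 at a median of 10 UMIs per 4 h library, and reads of HSPA8 and its copies may be shared between them.

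The inverted repeat GAANNTTC shown above for HSPA8 and CHORDC1 was found in the 250 upstream bases of 4 of the 17 chaperone genes that rose and had a promoter in the table (23.5%; HSPA8, CHORDC1, TCP1, and DNAJA1). It was found in 5.85% of all 27305 promoters and in 3.9% of the promoters of genes tested (6649 of the 8924 were matched). Among all genes higher at 8 h the share was 3.97%, near that of the genes tested. The motif is its own reverse complement, so that both strands were searched at once.

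Several genes of B cell identity and signaling rose. Of the 10 B cell markers, 5 rose and 0 fell, beside 3.43% of all genes that rose, with a median log2 fold change of 0.17. Together they made up 0.361% to 0.420% of the UMIs (median 0.381%) at 4 h and 0.409% to 0.454% (median 0.429%) at 8 h, so that the ranges overlapped at their ends. CD72, an inhibitory coreceptor of the B cell receptor, ranged from 46.8 to 77.7 CPM (median 57.3) at 4 h and from 52.9 to 93.8 CPM (median 75.5) at 8 h (log2 fold change 0.43 ± 0.09, edgeR adjusted p = 0.0019). CD79A, the signaling chain of the receptor, rose by 0.22 ± 0.05, MS4A1 (CD20) by 0.18 ± 0.05, CD22 by 0.17 ± 0.05, and the coactivator POU2AF1 by 0.16 ± 0.05. The number of markers called was 3 without 4 h replicate 4, 4 h replicate 7, 8 h replicate 6, or 8 h replicate 7, 2 in the model of all 54 libraries, 1 with rows C and E alone, and 0 with rows D and F alone. In bulk RNA, more cells that express a gene and more of its RNA per cell cannot be told apart.

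Of 28 genes of B cell receptor signaling tested, 8 rose and 1 fell (median 0.15), beside 3.43% higher and 2.77% lower of all genes. PLCG2, the phospholipase that the receptor activates, ranged from 199.9 to 245 CPM (median 209) at 4 h and from 254 to 288 CPM (median 270.2) at 8 h, and all 8 h libraries lay above all 4 h libraries (log2 fold change 0.32 ± 0.06, edgeR adjusted p = 9.4e-05). PTPRC (CD45, 0.30), CD53 (0.28), VAV1 (0.26), and FCRLA (0.23) were the further members called with CD72, CD79A, and CD22. PRKCB, the kinase downstream of PLCG2, fell by 0.38 on the log2 scale at an edgeR adjusted p of 0.046, and the call was lost in 12 of the 18 fits that left out a library (adjusted p up to 0.122, without 8 h replicate 3). With rows C and E alone 4 members rose, and with rows D and F alone 0.

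Among 28 germinal center factors and markers, 9 rose and 1 fell (median 0.12), beside the same shares of all genes. BACH2, a repressor that opposes plasma cell differentiation, ranged from 170.2 to 223 CPM (median 194) at 4 h and from 217 to 323 CPM (median 248) at 8 h, with 8 of 9 libraries above all of 4 h (log2 fold change 0.38 ± 0.06, edgeR adjusted p = 6.7e-05). The transcription factors ETS1 (0.37), TCF3 (0.28), IKZF1 (0.27), and EBF1 (0.24) and the germinal center markers TCL1A (0.35) and GCSAM (0.39) rose, as did ID3 (0.29), an inhibitor of E proteins such as TCF3. GCSAM ranged from 28.6 to 42.1 CPM (median 36.6) at 4 h and from 42.5 to 58.5 CPM (median 47.7) at 8 h, without overlap. It overlaps C3orf52 on the other strand, and the use of strand in counting is not given in the sources used here. Of the plasma cell factors, 2 of 6 rose, beside 3.43% of all genes. They were TNFRSF17 (BCMA, 0.57 ± 0.14, edgeR adjusted p = 0.0085) and CD27 (0.39 ± 0.07), which overlaps TAPBPL. With rows C and E alone 5 of the germinal center genes rose, and with rows D and F alone 2.

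BCL6, the master repressor of the germinal center and a gene that IL-4 regulates, was the member that fell. It ranged from 385 to 472 CPM (median 431) at 4 h and from 305 to 440.3 CPM (median 333) at 8 h, with 8 of 9 libraries below all of 4 h. The log2 fold change was −0.36 ± 0.06 (edgeR adjusted p = 9.8e-06), after −0.55 between 2 and 4 h in the model of the 27 STAT6WT libraries. The highest 8 h value was that of replicate 2, the library with the fewest UMIs.

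Of 27 IL-4/STAT6 target genes on the list 13 were tested, 2 rose (ID3 and STAT6), BCL6 fell, and the median log2 fold change was 0.04. The 3 called were 23.1% of those tested, beside 6.2% of all genes, and with rows D and F alone 0 were called. They count STAT6 itself, which these cells also express from the construct. SOCS1 ranged from 50.3 to 62.0 CPM (median 55.1) at 4 h and from 41.5 to 56.7 CPM (median 52.7) at 8 h, a log2 fold change of −0.16 ± 0.09 (edgeR adjusted p = 0.32), whereas its log2 fold change from 2 to 4 h had been −0.89. FCER2 was counted at a median of 10 UMIs per library at 4 h and 15 at 8 h, and the log2 fold change of 0.31 ± 0.19 did not pass (edgeR adjusted p = 0.37). The receptor chain IL4R had a log2 fold change of 0.16 ± 0.06 (edgeR adjusted p = 0.094).

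STAT6 itself ranged from 132 to 181 CPM (median 149.9) at 4 h and from 166 to 226 CPM (median 178) at 8 h (log2 fold change 0.24 ± 0.07, edgeR adjusted p = 0.021). The ranges overlapped, with 3 libraries of 8 h above all of 4 h, and the call was lost without 4 h replicate 5, 4 h replicate 6, or 8 h replicate 1 (adjusted p = 0.0662, 0.0625, and 0.0585). Whether mRNA of the construct counts toward STAT6 is not given, and STAT6 overlaps LRP1 and NAB2 on the other strand. IRF4, PARP14, and CCL17 had too few UMIs for the test. IRF4, a transcription factor that IL-4 induces in B cells, had a median of 3 UMIs per library at both times (median 4.09 CPM at 4 h and 2.73 CPM at 8 h, after 16.2 CPM at 2 h). PARP14 had a median of 5 and 6 UMIs, and CCL17 of 1 and 1.

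Interferon-stimulated genes moved in both directions, with 4 of 25 higher and 2 lower (median 0.10), beside 3.43% higher and 2.77% lower of all genes. BST2 (tetherin) ranged from 66.9 to 101 CPM (median 89.1) at 4 h and from 105 to 136 CPM (median 122) at 8 h, without overlap (log2 fold change 0.48 ± 0.08, edgeR adjusted p = 5.5e-05). OAS2, an antiviral sensor of double-stranded RNA, ranged from 12.4 to 21.8 CPM (median 17.7) and then from 22.3 to 30.7 CPM (median 25.5), also without overlap (0.56 ± 0.14, edgeR adjusted p = 0.010). MX2 (0.31) and SP110 (0.29) rose, and TRIM22 (−0.67 ± 0.17) and ISG20 (−0.27 ± 0.07) fell. Without 4 h replicate 2 or 8 h replicate 9, 2 members rose, and without 4 h replicate 6, 1 fell (ISG20 at an adjusted p of 0.0521). With rows C and E alone 2 rose and 0 fell, and with rows D and F alone 1 rose and 0 fell.

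**Figure D2:**
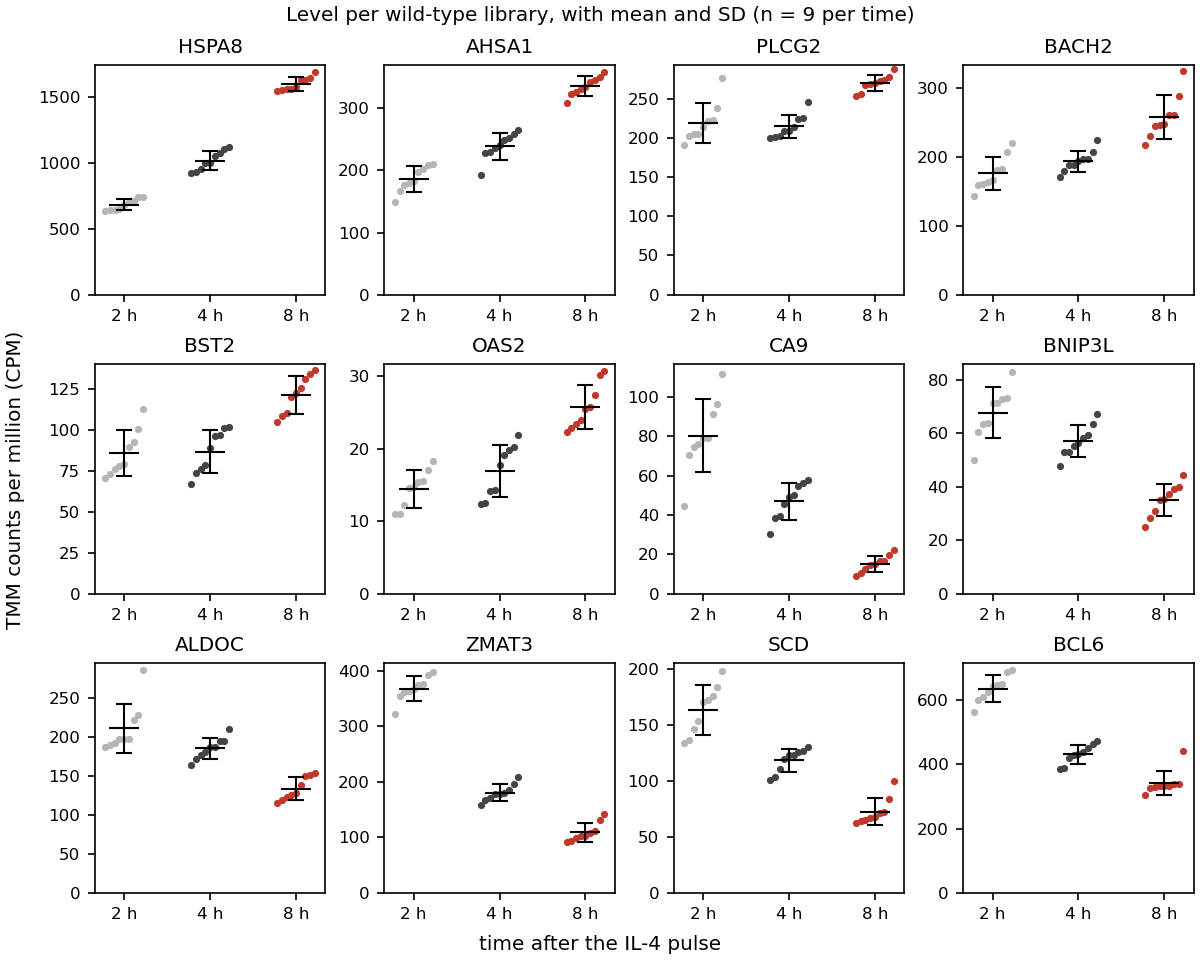
TMM CPM of 12 genes in each STAT6WT library (points) at 2, 4, and 8 h after the IL-4 pulse, with the mean and SD of the 9 libraries per time point. HSPA8, AHSA1, PLCG2, BST2, and OAS2 were higher in all 8 h than in all 4 h libraries, CA9, BNIP3L, ALDOC, ZMAT3, and SCD were lower in all, and BACH2 and BCL6 overlapped in 1 of the 9 libraries of 8 h.

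The largest fall was in the hypoxia response. CA9, a carbonic anhydrase that regulates pH and a classical target of hypoxia-inducible factors, ranged from 44.3 to 111 CPM (median 78.8) at 2 h, from 30.3 to 57.5 CPM (median 49.1) at 4 h, and from 9.02 to 22.3 CPM (median 15.1) at 8 h. The 4 h and 8 h ranges did not overlap, and the log2 fold change was −1.76 ± 0.14 (edgeR adjusted p = 1.0e-13; exact permutation p = 4.1e-05, the smallest possible). CA9 overlaps ARHGEF39 on the other strand. BNIP3L, a receptor for the removal of mitochondria, ranged from 47.7 to 67.3 CPM (median 56.2) at 4 h and from 25.0 to 44.5 CPM (median 35.4) at 8 h (−0.76 ± 0.11, edgeR adjusted p = 1.1e-06). FAM162A, a mitochondrial protein induced by hypoxia, went from 261 ± 15.1 CPM (SD, n = 9) to 175 ± 13.9 CPM (−0.57 ± 0.06). These 3 of 13 members fell and 0 rose (median −0.27), beside 2.77% of all genes that fell. Without 8 h replicate 8, 5 members fell. PDK1 (−0.38), BNIP3 (−0.27), and DDIT4 (−0.23) did not pass, and HIF1A had a log2 fold change of 0.18 without passing.

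Of 20 glycolysis genes, 10 fell and 0 rose (median −0.14), beside 2.77% of all genes that fell. The falls were small and ran along the pathway, from aldolase (ALDOC −0.46, ALDOA −0.17) over triose phosphate isomerase (TPI1 −0.19), GAPDH (−0.16), PGK1 (−0.20), PGAM1 (−0.39), and enolase (ENO1 −0.20) to pyruvate kinase (PKM −0.15) and lactate dehydrogenase (LDHA −0.25). ALDOC ranged from 164 to 211 CPM (median 187) at 4 h and from 115 to 154 CPM (median 128) at 8 h, without overlap (edgeR adjusted p = 3.3e-06). GAPDH went from 5063 ± 167 CPM to 4540 ± 198 CPM (SD, n = 9). PFKFB4, which sets the level of an activator of glycolysis, had the largest fold change (−0.67 ± 0.21, edgeR adjusted p = 0.037), at a median of 11.8 CPM at 4 h, and lost its call in 9 of the 16 fits without 1 library in which it was tested (adjusted p up to 0.141, without 8 h replicate 3). The hexokinase HK2 (0.32) and the glucose transporter SLC2A1 (0.18), which act at the entry of the pathway, did not pass. Without any 1 library 8 to 10 members fell, in the model of 54 libraries 6, with rows C and E alone 4, without a count filter 3, and with rows D and F alone 1.

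The core ACGTG, added to the search after the calls were seen, was found upstream of 5 of the 10 glycolysis genes that fell (ALDOC, LDHA, PGK1, ALDOA, and GAPDH) and of CA9 and FAM162A. It is short and common, and was found in 18.7% of all promoters, 25.4% of those of genes tested, 30.1% of those of all genes lower at 8 h, and 27% of those of genes higher. In the windows of LDHA and GAPDH 1 match forms the palindrome CACGTG (the E-box, in 6.49% of all promoters), so that these motifs overlap. The E-box was found upstream of 16.5% of the genes lower and 9.92% of the genes higher at 8 h, beside 9.75% of the genes tested. The sterol element TCACNCCAC was found upstream of 3.76% of the genes lower (5 of 133) and 0.794% of the genes higher, beside 0.948% of the genes tested. These differences were not tested. The STAT6 site, 2 inverted half-sites with 4 bases between them, was found upstream of 3.57% of the genes higher and 5.26% of the genes lower at 8 h, beside 4.08% of the genes tested and 5.35% of all promoters.

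Targets of p53 split, with 3 of 21 lower and 1 higher, beside 2.77% lower and 3.43% higher of all genes. ZMAT3, DDB2, and CCNG1 fell by 0.79 ± 0.07, 0.76 ± 0.09, and 0.72 ± 0.13 on the log2 scale (edgeR adjusted p = 1.0e-11, 4.8e-08, and 0.00023), and RRM2B rose by 0.33 ± 0.09 (0.016). ZMAT3, an RNA-binding splicing regulator, ranged from 159 to 209 CPM (median 178) at 4 h and from 91.5 to 142 CPM (median 103) at 8 h, and DDB2, a DNA damage sensor, from 86.0 to 123 CPM (median 94.6) and from 46.1 to 82.0 CPM (median 59.6). In both, all 8 h libraries lay below all 4 h libraries. The other 17 of 21 members did not pass, among them MDM2 (0.09) and CDKN1A (0.09), and the median of the list was −0.04. The call of RRM2B was lost without 4 h replicate 5 (adjusted p = 0.0540).

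Of 23 genes of sterol synthesis 6 fell and 1 rose (median −0.15), beside 2.77% lower and 3.43% higher of all genes. Whether called or not, 16 of the 23 had a negative and 7 a positive log2 fold change. FDFT1 (squalene synthase) fell by 0.43 ± 0.09, MVD (mevalonate decarboxylase) by 0.41 ± 0.08, and DHCR7, the last step to cholesterol, by 0.33 ± 0.09 on the log2 scale (edgeR adjusted p = 0.0023, 0.00071, and 0.018). HMGCS1 (−0.28), ACAT2 (−0.26), and the transcription factor SREBF2 (−0.26) were also called, and PMVK rose (0.35 ± 0.08). Without 4 h replicate 5 or 8 h replicate 3, without a count filter, or with the replicate number as a block, 3 members fell, and with rows D and F alone 0 were called and the median was 0.03. In fatty acid synthesis 2 of 14 fell and 1 rose, beside the same shares of all genes. SCD, the desaturase that makes oleate, ranged from 101 to 130.1 CPM (median 123) at 4 h and from 62.6 to 99.6 CPM (median 67.7) at 8 h, without overlap (−0.78 ± 0.08, edgeR adjusted p = 2.5e-10), and FADS2 fell by 0.64 ± 0.12 (0.00042). FADS2 overlaps FEN1 and FADS1. ELOVL1 rose by 0.43 at an adjusted p of 0.049, which was lost in 12 of the 18 fits without 1 library (up to 0.123, without 4 h replicate 6).

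In the integrated stress response, which links amino acid supply to transcription, 3 of 21 members fell and 1 rose. Of all genes, 2.77% fell and 3.43% rose. ATF5 ranged from 318 to 453 CPM (median 393) at 4 h and from 257 to 298 CPM (median 279) at 8 h, without overlap (−0.51 ± 0.06, edgeR adjusted p = 2.4e-09). It overlaps IL4I1 and NUP62 on the other strand. SHMT2 (−0.26) and GARS1 (−0.22) fell, whereas the regulator ATF4 had a log2 fold change of 0.05. AARS1 rose by 0.27, and the call was lost in 6 of 18 fits without 1 library (adjusted p up to 0.0986, without 8 h replicate 7). In the unfolded protein response of the endoplasmic reticulum 3 of 29 rose and 0 fell, beside 3.43% of all genes that rose. The largest rise was that of the lectin chaperone CALR (0.33 ± 0.07, edgeR adjusted p = 0.0011). It ranged from 367 to 633 CPM at 4 h and from 541 to 833 CPM at 8 h. PDIA4 (0.24) and HYOU1 (0.31) were the others, and HYOU1 lost its call in 14 of the 18 fits without 1 library (adjusted p up to 0.142, without 4 h replicate 6). Of 16 genes of the NF-kB response 2 fell, beside 2.77% of all genes that fell. They were GADD45B (−0.41 ± 0.10) and BIRC3 (−0.25 ± 0.07), and BIRC3 lost its call in 6 of 18 fits (up to 0.0597, without 4 h replicate 5). With rows C and E alone, and with rows D and F alone, 0 genes of the NF-kB response were called. In the unfolded protein response 0 were called with rows C and E alone, and with rows D and F alone 1 rose and 1 fell. In the integrated stress response 2 fell with rows C and E alone, and 1 with rows D and F alone.

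Genes of proliferation changed little. The shares called were 8.33% in G1/S and DNA replication, 6% in mitosis, and 7.69% in ribosome biogenesis, near the 6.2% of all genes. Of 48 genes of the G1/S phase and DNA replication, 3 rose (CDC25A 0.31, MCM3 0.23, and GINS2 0.23) and TK1 fell (−0.25), with a median of 0.10. Of 50 mitotic genes 3 fell, the helicase PIF1 (−0.37 ± 0.08), ARL6IP1 (−0.35 ± 0.07), and the proliferation marker MKI67 (−0.26), with a median of −0.08, and without 4 h replicate 3, 8 fell. The G1/S genes that rose numbered 5 without that library and 1 without 8 h replicate 6. MCM3, a subunit of the replicative helicase, ranged from 258 to 340 CPM (median 296) and then from 338 to 385 CPM (median 347), with 8 of 9 libraries of 8 h above all of 4 h. CDC25A and TK1 lost their calls in 8 and 6 of the 18 fits without 1 library (adjusted p up to 0.0709 without 8 h replicate 6, and up to 0.0926 without 4 h replicate 6). Of 39 genes of ribosome biogenesis 3 rose, with BOP1 at 0.39 ± 0.08 (edgeR adjusted p = 0.00054), PES1 at 0.42, and MRTO4 at 0.25, and the median was 0.11. With rows D and F alone, 0 genes of these 3 lists were called. The call of PES1 was lost in 15 of the 18 fits without 1 library (adjusted p up to 0.116, without 8 h replicate 8).

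Of 77 cytosolic ribosomal proteins 0 rose and 3 fell (3.9% called, beside 6.2% of all genes), with a median of −0.05. The 3 were RPS27, RPSA, and RPS24 (lower by 0.26, 0.15, and 0.15 on the log2 scale). Of these proteins, 0 were called without 4 h replicate 6 or 8 h replicate 4, in the model of 54 libraries, or with rows C and E alone. DESeq2 called 8 lower and 1 higher. Of 13 mitochondrially encoded mRNAs 3 fell (23.1%, beside 2.77% of all genes that fell). They were MT-ATP8 (−0.51), MT-CO1 (−0.37 ± 0.08, edgeR adjusted p = 0.0017), and MT-ND3 (−0.30). When 1 library was left out, 1 to 6 fell (1 without 4 h replicate 1, 2, or 8 or 8 h replicate 9, 5 without 4 h replicate 3, 6 without 8 h replicate 3). By DESeq2, by robust quasi-likelihood, or with rows C and E alone, 0 were called. Of 47 nuclear genes of the respiratory chain, 1 rose and 0 fell (2.13% called, beside 6.2% of all genes). The 1 gene was ATP5MC1 (0.18), a call lost in 10 of the 18 fits without 1 library. By class, protein-coding genes were higher in 294 and lower in 165 of 7788 cases, whereas pseudogenes were higher in 10 and lower in 58 of 815 and long noncoding RNAs higher in 0 and lower in 15 of 242. The share of UMIs on protein-coding genes rose at the same time, as given above, and its part in these counts was not tested.

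In 6 further lists at most 2 genes were called. Of all genes tested, 6.2% were called. Among 13 immediate early genes, ZFP36L2, which encodes an mRNA decay factor, fell (−0.25, edgeR adjusted p = 0.014), so that 7.69% were called. ID3 and TCF3 were the 2 of 7 ID, E-protein, and LMO factors that rose (28.6% called, a higher share than that of all genes). By edgeR's test 0 of 13 migration and chemokine receptor genes (median 0.13), 0 of 7 MHC class II genes (0.07), 0 of 14 genes of the BCL2 family (0.10), and 0 of 2 SOCS genes (−0.02) were called. At an unadjusted p under 0.05 these were 5, 1, 3, and 0, and DESeq2 and limma-voom each called 1 gene of the BCL2 family and 0 of the others. Among markers of other cell types, EPCAM rose (0.28, edgeR adjusted p = 0.035), a call lost in 8 of the 18 fits without 1 library, and TRAC, the only T and NK cell marker tested, had a log2 fold change of −0.10 without passing.

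Single genes outside these lists were among the largest changes. PLEK, a substrate of protein kinase C in blood cells, ranged from 26.4 to 51.8 CPM (median 36.8) at 4 h and from 50.8 to 79.8 CPM (median 61.3) at 8 h, with 8 of 9 libraries above all of 4 h (log2 fold change 0.74 ± 0.10, edgeR adjusted p = 1.3e-06). VNN2 (0.66 ± 0.13), ELP4 (0.66 ± 0.16), FAM81A (0.55 ± 0.09), the lymphocyte receptor SLAMF6 (0.55 ± 0.13), and the mitochondrial tRNA gene MT-TT (0.54 ± 0.12) also rose, as did the pseudogene CDC26P1 (0.59). LRRC45 (0.56) and the lysosomal protease CTSZ (0.61) lost their calls in 3 and 9 of the 18 fits without 1 library (adjusted p up to 0.0643 without 4 h replicate 2, and up to 0.0870 without 8 h replicate 3). QSOX1, an oxidase that forms disulfide bonds in the secretory pathway, ranged from 64.5 to 120.0 CPM (median 90.3) at 4 h and from 25.0 to 72.5 CPM (median 44.5) at 8 h, with 8 of 9 libraries below all of 4 h (−1.14 ± 0.12, edgeR adjusted p = 3.6e-10). The potassium channel gene KCNJ14 (−0.91 ± 0.17), which overlaps GRWD1, the monocarboxylate transporter SLC16A7 (−0.78 ± 0.19), the histone demethylase KDM7A (−0.73 ± 0.17), and LINC01215 (−0.67 ± 0.14) fell. Other named genes that overlap a gene on the other strand were AHSA1 (VIPAS39), CD72 (TESK1), ELP4 (PAX6), FAM81A (MYO1E), and CTSZ (NELFCD). So did LRRC45 (CENPX), SHMT2 (NDUFA4L2), AARS1 (DDX19B), PES1 (TCN2), and CD27 (CD27-AS1). On that strand VNN2, FDFT1, ALDOC, CALR, HYOU1, and KCNJ14 overlap genes that have no symbol. On the same strand MT-ATP8 overlaps MT-ATP6, and ARL6IP1 overlaps a gene without a symbol.

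Set beside the earlier step, the genes differed in their course. The steps from 2 to 4 h and from 4 to 8 h share the 4 h libraries, so that the values are only given side by side, with those of the earlier step from the model of the 27 STAT6WT libraries, in which 1185 of 9142 genes were called from 2 to 4 h (13%). HSPA8 had log2 fold changes of 0.59 and then 0.65, AHSA1 of 0.41 and 0.49, CA9 of −0.79 and −1.76, ZMAT3 of −1.04 and −0.79, and SCD of −0.51 and −0.78. PLEK (−0.04, then 0.74), PLCG2 (−0.03, then 0.32), and BST2 (0.05, then 0.48) had values near zero in the earlier step. GCSAM fell first and rose later (−0.89, then 0.39), as did CDC25A (−0.49, then 0.31), and SLC16A7 rose first and fell later (0.70, then −0.78). At 8 h against 2 h, GCSAM remained lower (−0.51), and SLC16A7 (−0.09) and CDC25A (−0.18) did not pass.

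The same step was measured in the STAT6MUT cells, in libraries that the comparison above does not use but that lay in the same plate rows. With the line as a covariate, 936 of 9034 genes were called (10.4%), 443 higher and 493 lower. Of the 8761 genes tested in both, 248 were called in both, which is 45.3% of the 547 called in STAT6WT and 27% of the 920 called in STAT6MUT cells, and all 248 moved in the same direction (146 higher, 102 lower). Of the 547, 512 had the same sign in STAT6MUT cells (93.6%), beside 68.3% of all genes tested in both. Heat shock genes rose in STAT6MUT cells too (11 of 27, 0 lower, median 0.17), with HSPA8 at 0.48 and AHSA1 at 0.35. CA9 fell by 1.00, BNIP3L by 0.71, FAM162A by 0.55, ZMAT3 by 0.70, and BCL6 by 0.65 on the log2 scale. Other genes called in STAT6WT cells were not called in STAT6MUT cells. Among them, ELP4 (−0.25) and GCSAM (−0.06) had the opposite sign. KDM7A (−0.17), SLC16A7 (−0.15), and PFKFB4 (−0.07) had the same sign but smaller values.

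**Figure D3:**
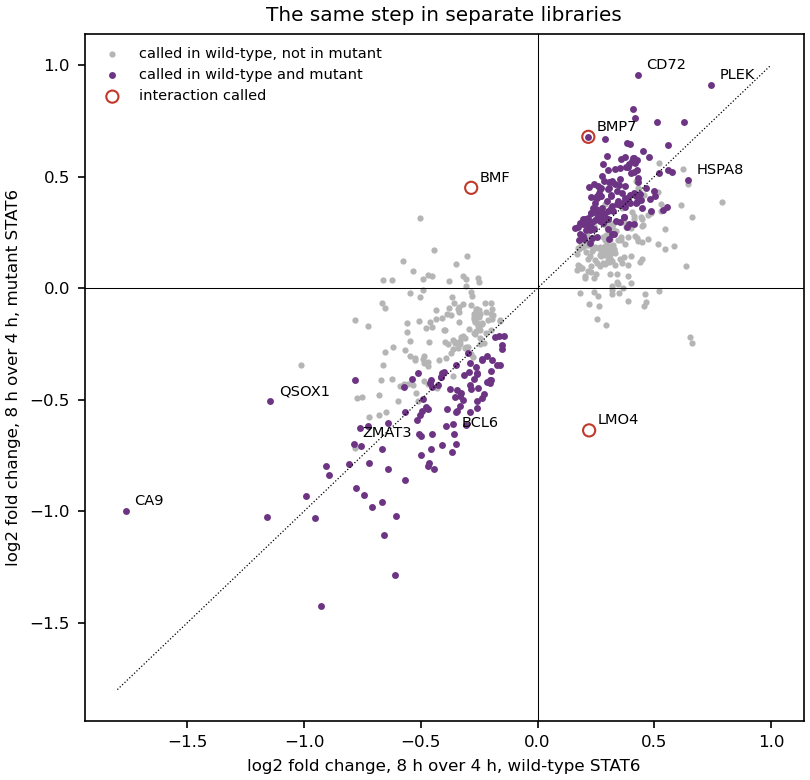
Log2 fold change at 8 h over 4 h in STAT6WT cells (horizontal axis) and in STAT6MUT cells (vertical axis) of the genes called in STAT6WT cells, in purple where they were also called in STAT6MUT cells and grey otherwise. Red circles mark the 3 genes whose step differed between the genotypes, of which LMO4 and BMF were not called in STAT6WT cells. The dotted line marks equal change, the 248 purple points lie in the lower left and upper right, and LMO4 and BMF lie in the other quadrants.

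Whether the step differed between STAT6WT and STAT6MUT cells was tested by the interaction of genotype and time point in the 36 libraries. The mutant lines were pooled in this test, without a term for the line. The interaction was called for 3 of 9197 genes (0.0326%; 727 at an unadjusted p under 0.05). Of the 3, 1 gene, BMP7, was among the genes called in STAT6WT cells. LMO4, a LIM-only cofactor of transcription, ranged from 44.6 to 73.8 CPM (median 60.8) at 4 h and from 63.6 to 95.4 CPM (median 69.7) at 8 h in STAT6WT cells, whereas in STAT6MUT cells it went from 78–139 CPM (median 114) to 57.5–82.7 CPM (median 75.7). The log2 fold changes were 0.22 and −0.64, and the difference was −0.86 ± 0.13 (edgeR adjusted p = 0.00016). BMP7, a secreted ligand of the TGF-beta family, went from a median of 272 to 316 CPM in STAT6WT cells and from 172 to 284 CPM in STAT6MUT cells (0.22 and 0.68, difference 0.46 ± 0.09, edgeR adjusted p = 0.0078). BMF, a proapoptotic member of the BCL2 family, went from a median of 69.6 to 56.9 CPM in STAT6WT cells and from 56.2 to 70.5 CPM in STAT6MUT cells (−0.28 and 0.45, difference 0.75 ± 0.15, edgeR adjusted p = 0.014).

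Without line N421K, 0 genes were called by the interaction test (edgeR adjusted p of 0.0732 for LMO4, 0.168 for BMP7, and 0.0732 for BMF). The call of BMP7 was also lost without line D419G (0.278) and that of BMF without line D419N (0.0866). For CA9 (difference 0.83), QSOX1 (0.63), SOCS1 (−0.46), and CD72 (0.50), the interaction did not pass (edgeR adjusted p = 0.34, 0.34, 0.34, and 0.38), and a p that misses the threshold does not show that the step was alike.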

How the data were processed

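Counts of OCI-Ly1 libraries at 4 and 8 h after an IL-4 pulse were compared. Sequencing of prime-seq libraries was done by the authors on a HiSeq system, reads were processed with the Drop-seq pipeline, and the deposited table holds UMI counts, 1 column per library, neither normalized nor pooled. The submitters' processing notes name hg38. Neither the aligner nor whether counting used strand is stated there, so that counts of overlapping genes and of similar copies are uncertain. Gene positions and overlaps came from GENCODE 44. Groups came from the sample labels. No column of values was left unused (0) and 0 rows lacked an identifier. CCL22 was not analysed here.

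Genes were tested with the quasi-likelihood test of edgeR (edgeR 4.0.16, R 4.3.3) after TMM scaling and filterByExpr with the design, with p-values adjusted by Benjamini-Hochberg over all genes tested, at an adjusted p under 0.05, on the 18 libraries with time point as the only term. CPM values are TMM-scaled, and log2 CPM used a prior count of 2. The interaction used 36 libraries, with the mutant lines pooled and no term for the line. The STAT6MUT step used the 18 STAT6MUT libraries with the line as covariate. Single values were compared by two-sided exact permutation tests (Python 3.11.15, numpy 2.4.6, checked against scipy 1.17.1). Plots used matplotlib 3.10.9. DESeq2 1.42.0 and limma 3.58.1 served alternatives. No gene set test was run, and the 30 lists are given by counts and medians. The comparison, the lists, and the members were chosen with earlier results of these data known. Named genes were the 12 largest rises and 12 largest falls among called genes with a symbol and at least 20 CPM at either time, the 2 largest called rises and falls of each list, FCER2, SOCS1, IRF4, PARP14, STAT6, and CCL17, and the 3 genes with the smallest interaction p. Other members are given to describe their list.

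All 72 pairs of libraries of one time point differed by more than the sampling noise expected of repeat counts of one library (chi-square per degree of freedom of at least 1.08). In counts simulated for the STAT6WT step (8782 genes tested), 73.5% of genes changed by 0.5 and 98.9% of those changed by 1 on the log2 scale were recovered, with 10 calls among unchanged genes. For the interaction (9064 genes), 33.3% and 84.7% were recovered. Depth limits genes with few UMIs, and PCR copies are already removed by the UMIs.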

Additional observations from a re-analysis of the deposited data

Results flagged for a closer look

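Among 150 sets of 9 libraries (75 named genes at 4 h and at 8 h), 9 held a library set apart from the other 8 by Dixon's test, where chance gives about 1 in 20. In 4 of the 9 it was 8 h replicate 2, which has the fewest UMIs of the 18 libraries. It had the highest CTSZ (50.2 CPM from 18 UMIs, next 26.8 CPM), BCL6 (440.3 CPM, next 338 CPM), and CALR (833 CPM, next 658 CPM) and the lowest CD72 (52.9 CPM from 19 UMIs, next 72.9 CPM). At 8 h, replicate 8 had the lowest EPCAM (72.1 CPM, next 104 CPM) and replicate 1 the lowest BOP1 (96.9 CPM, next 111 CPM). At 4 h, replicate 2 had the highest ID3 (109 CPM, next 96.0 CPM), replicate 3 the lowest ZFP36L2 (124 CPM, next 151 CPM), and replicate 8 the lowest AHSA1 (192 CPM, next 227 CPM). Without these libraries, all 9 genes kept their direction, and CTSZ lost its call without 8 h replicate 2 (adjusted p = 0.0574).

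The step from 4 to 8 h differed between the genotypes by the interaction test for LMO4 (−0.86, STAT6MUT minus STAT6WT, log2), BMP7 (0.46), and BMF (0.75).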

How the results depend on the processing

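The count of 553 genes stayed within 1.5 times under 11 of the 13 alternatives other than leaving out 1 library, and was 169 with rows C and E only and 120 with rows D and F only (1 gene turned its sign there). It was 415 to 747 with each library left out in turn (415 without 4 h replicate 1, 747 without 4 h replicate 3), and 304 of the 553 were called without each of the 18 (173 higher, 131 lower). Of the calls, 55.3% were higher, and 68.1% without a count filter. Same-numbered libraries did not deviate alike (correlations of same-numbered deviations −0.14 to 0.079, 0 of 9 over 0.1, 1 of 18 libraries best with its own number). Such correlations cannot show whether same-numbered libraries came from one culture. With the replicate block 438 genes were called. The 5 genes at an absolute log2 fold change of 1 became 34 without a filter, 2 by DESeq2, 8 in the model of 27 libraries, 8 with the replicate block, 3 in rows C and E, 15 in rows D and F, and 3 to 8 without 1 library. The 3 interaction calls became 5 without a filter, 5 without the shallow libraries, 1 with the replicate block (LMO4), and 0 without line N421K. The causes were not tested. None of the 72 named genes tested changed sign in these alternatives. In the 13 other than leaving out 1 library, 144 values lost and 1 gained a call and 788 kept their side of the threshold, and of the 1294 values without 1 library 141 lost and 3 gained one. The scalings and leaving out the shallow library changed no list's direction. Alternatives by mutant line, and for lists by row, tool, and left-out library, were chosen after seeing the data.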
